A study of Mus musculus with 18 samples.

Results

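The genes described here are 45 components of Toll-like receptor (TLR) signalling, listed by symbol for their role in the pathway. They comprise 11 receptors, co-receptors and receptor chaperones, 4 adaptors, 3 IRAK kinases, 2 brakes, 8 TRAF, TAB and ubiquitin pathway genes, 9 kinases and scaffolds of the TAK1, IKK and TBK1 group, and 8 MAP kinase pathway genes. All 45 were found in the deposited table of 11243 protein-coding genes. The list was drawn up with earlier results of these data known, so its shares set against all genes are descriptive. The RNA came from RAW264.7 cells, a transformed mouse macrophage line, so every library shares 1 genetic background and no primary macrophage was measured. Control cells received vehicle (DMSO), and the labels of these libraries do not give its duration. The LPS group received 500 ng/mL lipopolysaccharide of Salmonella for 6 h. The third group received 100 nM torin1, an active-site inhibitor of the kinase mTOR, for 15 min and then 500 ng/mL LPS with torin1 for 6 h. Each of the 9 lysates (3 independent experiments of 3 treatments) gave a total mRNA library and a library of heavy-polysome mRNA, that is mRNA carrying more than 3 ribosomes, which makes 18 libraries. Cells given torin1 alone were not analysed here, so each torin1 value is a difference between LPS-treated cells with and without the inhibitor.

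TLRs are transmembrane receptors that recognise conserved microbial molecules. TLR4 recognises LPS together with MD-2 (Ly96) and CD14 at the cell surface, TLR2 with TLR6 recognises lipopeptides, and TLR7, TLR8, TLR9 and TLR13 recognise nucleic acids in endo-lysosomes, where UNC93B1 delivers them. Ligand-bound receptors recruit MyD88 through TIRAP, or TRIF (Ticam1) through TRAM (Ticam2). MyD88 assembles IRAK kinases and TRAF6, whose ubiquitin chains activate TAK1, the IKK complex and MAP kinases, whereas TRIF also engages TBK1 and IKKε (Ikbke). IRAK-M (Irak3) and Tollip act as brakes on this cascade.

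NF-κB binds κB sites and interferon regulatory factors bind interferon-stimulated response elements (ISREs), and both kinds of factor act downstream of TLRs, so the promoters of the genes were searched for these letters. RefSeq promoter windows on GRCm38.p6, each running from 250 bases before to 50 bases after a transcription start, were matched by symbol for 35 of the 45 genes, in 50 windows. Cd14, Ikbkb, Ly96, Map3k8, Mapk3, Tab1, Ticam2, Tlr4, Tlr7 and Unc93b1 had no entry in the table used. The κB letters searched were GGGANNNNCC on both strands, and 10 of the 50 windows (20.0%) held them, against 20.7% of all 32851 windows. The ISRE letters were GAAANNGAAA on both strands, and 4 of the 50 windows (8.0%) held them, against 3.44% of all windows. The 250 bases upstream of the start are printed for the genes described library by library below whose match lay wholly upstream. Capitals mark the matched letters, read 5′ to 3′ on the strand of the gene, and the overlapping pair of matches of Tlr6 appears as 1 run. A match describes the letters only and does not show that a factor bound.
Irak3 (chr10:120201598-120201847, GRCm38.p6, minus strand, κB letters): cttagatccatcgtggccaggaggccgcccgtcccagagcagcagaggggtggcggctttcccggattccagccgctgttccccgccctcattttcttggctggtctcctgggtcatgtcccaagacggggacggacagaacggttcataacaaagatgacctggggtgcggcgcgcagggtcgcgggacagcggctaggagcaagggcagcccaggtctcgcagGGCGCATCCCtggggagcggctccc
Map2k1 (chr9:64253606-64253855, GRCm38.p6, minus strand, κB letters): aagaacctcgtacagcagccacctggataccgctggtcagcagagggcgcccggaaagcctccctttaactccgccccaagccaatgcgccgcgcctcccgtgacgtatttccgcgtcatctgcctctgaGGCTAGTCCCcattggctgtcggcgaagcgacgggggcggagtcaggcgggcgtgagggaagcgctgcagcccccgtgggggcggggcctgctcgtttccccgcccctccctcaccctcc
Myd88 (chr9:119340019-119340268, GRCm38.p6, minus strand, ISRE letters): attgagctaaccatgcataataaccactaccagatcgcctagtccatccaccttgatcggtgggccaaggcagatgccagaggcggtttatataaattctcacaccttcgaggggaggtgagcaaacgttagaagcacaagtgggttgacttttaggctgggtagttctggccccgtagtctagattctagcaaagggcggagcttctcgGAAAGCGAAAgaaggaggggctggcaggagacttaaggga
Tlr6 (chr5:64959167-64959416, GRCm38.p6, minus strand, ISRE letters): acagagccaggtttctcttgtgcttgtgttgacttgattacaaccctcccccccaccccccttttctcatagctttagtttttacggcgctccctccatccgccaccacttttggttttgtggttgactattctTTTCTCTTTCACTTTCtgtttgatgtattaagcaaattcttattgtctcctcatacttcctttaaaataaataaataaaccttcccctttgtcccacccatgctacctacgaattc
The match of Irak3 began at position -25, that of Map2k1 at -120, that of Myd88 at -40 and those of Tlr6 at -116 and -110, counted so that the start site is position 0.

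The total count per library ran from 27800983 to 47725557. The lowest count of any of the 45 genes in any library was 78, for Ticam2, so no gene described here was near a count of 0. Levels are given as counts relative to sequencing depth (CPM), scaled by the trimmed mean of M-values (TMM-normalised CPM). TMM factors were 1.13 to 1.19 in control libraries, 0.88 to 0.93 after LPS and 0.93 to 0.97 after LPS with torin1. Of 10 macrophage markers 9 were in the table, and their summed level in total mRNA was 11627 to 12452 CPM in control cells, 10290 to 12444 CPM after LPS and 8696 to 9821 CPM after LPS with torin1. The torin1 libraries thus lay below all others in this sum, and its part in the torin1 results was not tested. None of 20 markers of T cells, B cells, fibroblasts, epithelial cells and neutrophils was in the table, from which the authors had removed genes with a count of 0 in any library. In such bulk samples, fewer expressing cells and less RNA per cell cannot be told apart.

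In control cells, levels per length of exon spanned a wide range among the 45 genes. In total mRNA, Cd14 stood highest at 684 ± 31.9 reads per kilobase of exon scaled to sequencing depth (RPKM, SD, n = 3), followed by Tlr2 at 168 ± 17.3 RPKM and Mapkapk2, the kinase activated by p38, at 165 ± 20.2 RPKM. Tlr2 and Mapkapk2 differed by less than their SDs. At the other end were Tlr9 at 2.93 ± 0.137 RPKM, Map3k8 at 2.54 ± 0.192 RPKM, Tlr8 at 2.25 ± 0.624 RPKM and the adaptor gene Ticam2 at 1.05 ± 0.0391 RPKM. Tlr8 overlapped Map3k8 within its SD, and Ticam2 was below both. Ticam2 shares exons with Tmed7 on the same strand, so its level per length and its last place are uncertain.

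The first comparison asked how the receptor-proximal pathway changed 6 h after LPS. In total mRNA, 24 of the 45 genes (53.3%) rose and 4 (8.89%) fell at an adjusted p under 0.05 (edgeR's quasi-likelihood test, Benjamini-Hochberg adjustment over all genes), where 21.7% of all genes rose and 24% fell. In polysome-associated mRNA, 22 of the 45 (48.9%) rose and 3 (6.67%) fell, where 15.9% of all genes rose and 16.6% fell. The median log2 fold change of the 45 was 0.39 in total and 0.43 in polysome-associated mRNA, and that of all genes was -0.02 and -0.03. Rises were spread over roles in total mRNA. They comprised 7 of 11 receptors and chaperones, 3 of 4 adaptors, 1 of 3 IRAK kinases, both brakes, 3 of 8 TRAF and TAB genes, 5 of 9 genes of the TAK1, IKK and TBK1 group and 3 of 8 MAP kinase genes. The 4 that fell were the chaperone gene Cnpy3, the adaptor gene Ticam2, the TAK1-binding Tab1 and the JNK2 gene Mapk9. Every gene called in either RNA type moved the same way in 3 of 3 experiments, with groups that did not overlap. With 3 libraries per group this largely follows from being called, so it is not a separate support for these genes.

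The balance of rises and falls depended on the scaling. With library totals in place of TMM, the median of all genes shifted to -0.38 in both RNA types, and the total mRNA of 15 of the 45 genes rose and that of 12 fell, against 11.2% and 48.9% of all genes. For polysome-associated mRNA, 15 then rose and 11 fell, against 9.14% and 36.2% of all genes. The median of the 45 was then 0.01 and 0.08, so it remained above that of all genes. In total mRNA the genes whose rise was no longer called with library totals were Tlr2 (0.36), Tlr7 (0.15), Ly96 (0.23), Unc93b1 (0.22), Tollip (0.28), Tab2 (0.31), Ripk1 (0.01) and Map2k4 (0.21), and Traf6 turned to -0.06. For polysome-associated mRNA they were Tlr7 (0.28), Ly96 (0.45), Tollip (0.29), Traf6 (0.08), Tab2 (0.40), Ube2n (0.21) and Map2k4 (0.49). Values in total mRNA that stayed called but moved by over 1.5 times were Tlr6 (0.67), Tirap (0.33), Tank (0.67), Tbk1 (0.71), Mapk9 (-0.88) and Cnpy3 (-0.85). In polysome-associated mRNA those of Tlr6 (0.64), Tirap (0.46), Tbk1 (0.70) and Cnpy3 (-0.99) did so. Of the 28 genes called in total mRNA, 21 stayed called whichever experiment was left out. Cnpy3, Ly96 and Tlr7 lost the call without experiment 1, Tlr2 without experiment 3, Unc93b1 without experiment 2 or 3, and Ripk1 and Traf6 whichever experiment was left out (adjusted p from 0.0577 to 0.184). In polysome-associated mRNA 13 of 25 stayed called throughout, and the number called was 13 without experiment 1 and 15 without experiment 3. Those that lost a call were Ly96, Tab2, Ube2n, Map2k4, Tab1, Cnpy3, Traf6, Tlr6, Tollip and Tlr7 without experiment 1 or 3, and Ticam2 and Tank without experiment 1 (adjusted p from 0.0543 to 0.369).

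**Figure D1:**
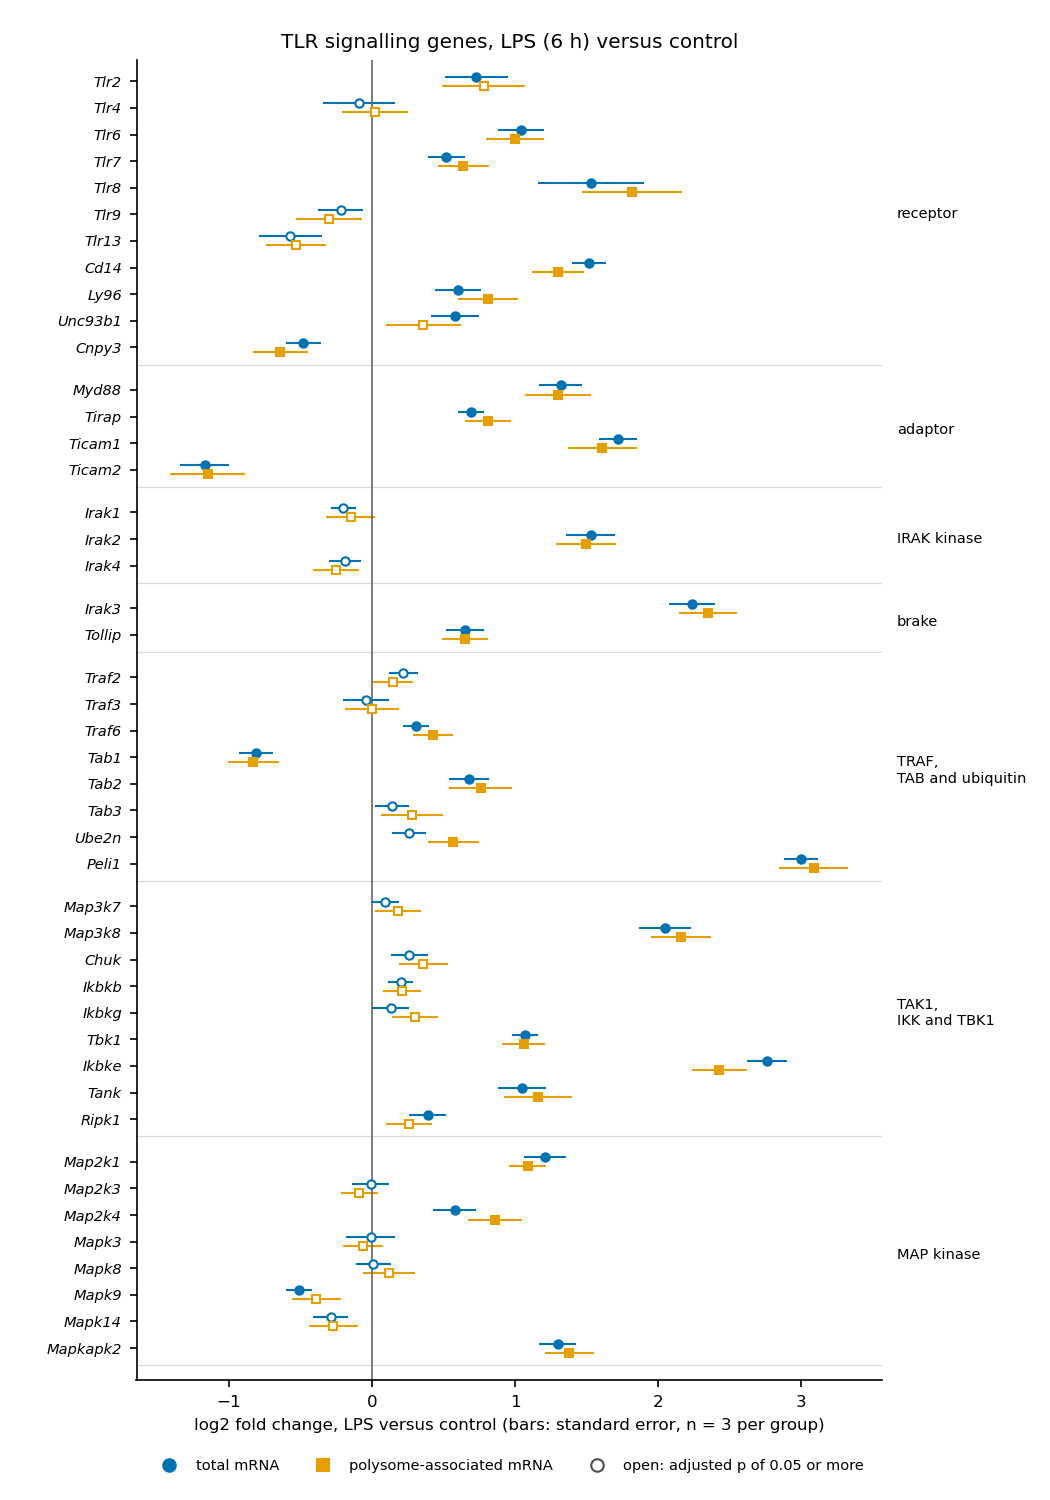
Log2 fold change of the 45 genes after LPS versus control in total mRNA (circles) and polysome-associated mRNA (squares), grouped by role, with bars for the standard error (n = 3 per group) and filled symbols for an adjusted p under 0.05. Peli1, Ikbke and Irak3 lie farthest right at 3.00, 2.76 and 2.24 in total mRNA, and Ticam2 lies farthest left at -1.17.

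The next comparison asked which of these levels differed when mTOR was inhibited during LPS. In total mRNA, 7 of the 45 genes (15.6%) were higher and 9 (20.0%) lower with torin1 than with LPS alone, where 15.6% of all genes were higher and 13.5% lower. In polysome-associated mRNA, 4 (8.89%) were higher and 5 (11.1%) lower, where 8.1% of all genes were higher and 5.75% lower. These counts are small and close to those of all genes, so nothing about the pathway as a whole is read from them, and the results below are those of single genes. This comparison shares its LPS libraries with the one before it. The median log2 difference of the 45 was -0.06 in both RNA types. The genes higher in total mRNA were Tlr13, Ticam2, Irak2, Tlr6, Ly96, Tab1 and Ikbkg, and those lower were Tlr9, Peli1, Myd88, Map2k1, Map2k3, Map3k8, Ticam1, Ube2n and Tirap. Of these, Tlr13, Ticam2, Tlr6 and Irak2 were also higher, and Tlr9, Peli1, Myd88, Map2k1 and Map2k3 also lower, in polysome-associated mRNA. All moved the same way in 3 of 3 experiments, which again largely follows from being called.

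With 1 experiment left out, Tlr13, Ticam2, Tlr9, Peli1 and Myd88 stayed called in total mRNA in every case. The number called was 5 without experiment 3. Irak2, Tlr6 and Map2k3 lost the call without experiment 3 only, Map2k1, Map3k8 and Ticam1 without experiment 1 or 3, Ly96 and Tirap without experiment 2 or 3, and Ube2n, Tab1 and Ikbkg whichever experiment was left out (adjusted p from 0.0511 to 0.317). In polysome-associated mRNA, only Tlr13 stayed called without experiment 1 and without experiment 3, the other 8 then having an adjusted p from 0.0636 to 0.315, and 13 genes were called without experiment 2. With the experiment as a block, the numbers called were 23 (total mRNA) and 11 (polysome-associated mRNA). The share of all genes called under that setting is not given here, so nothing about the pathway is read from these numbers.

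**Figure D2:**
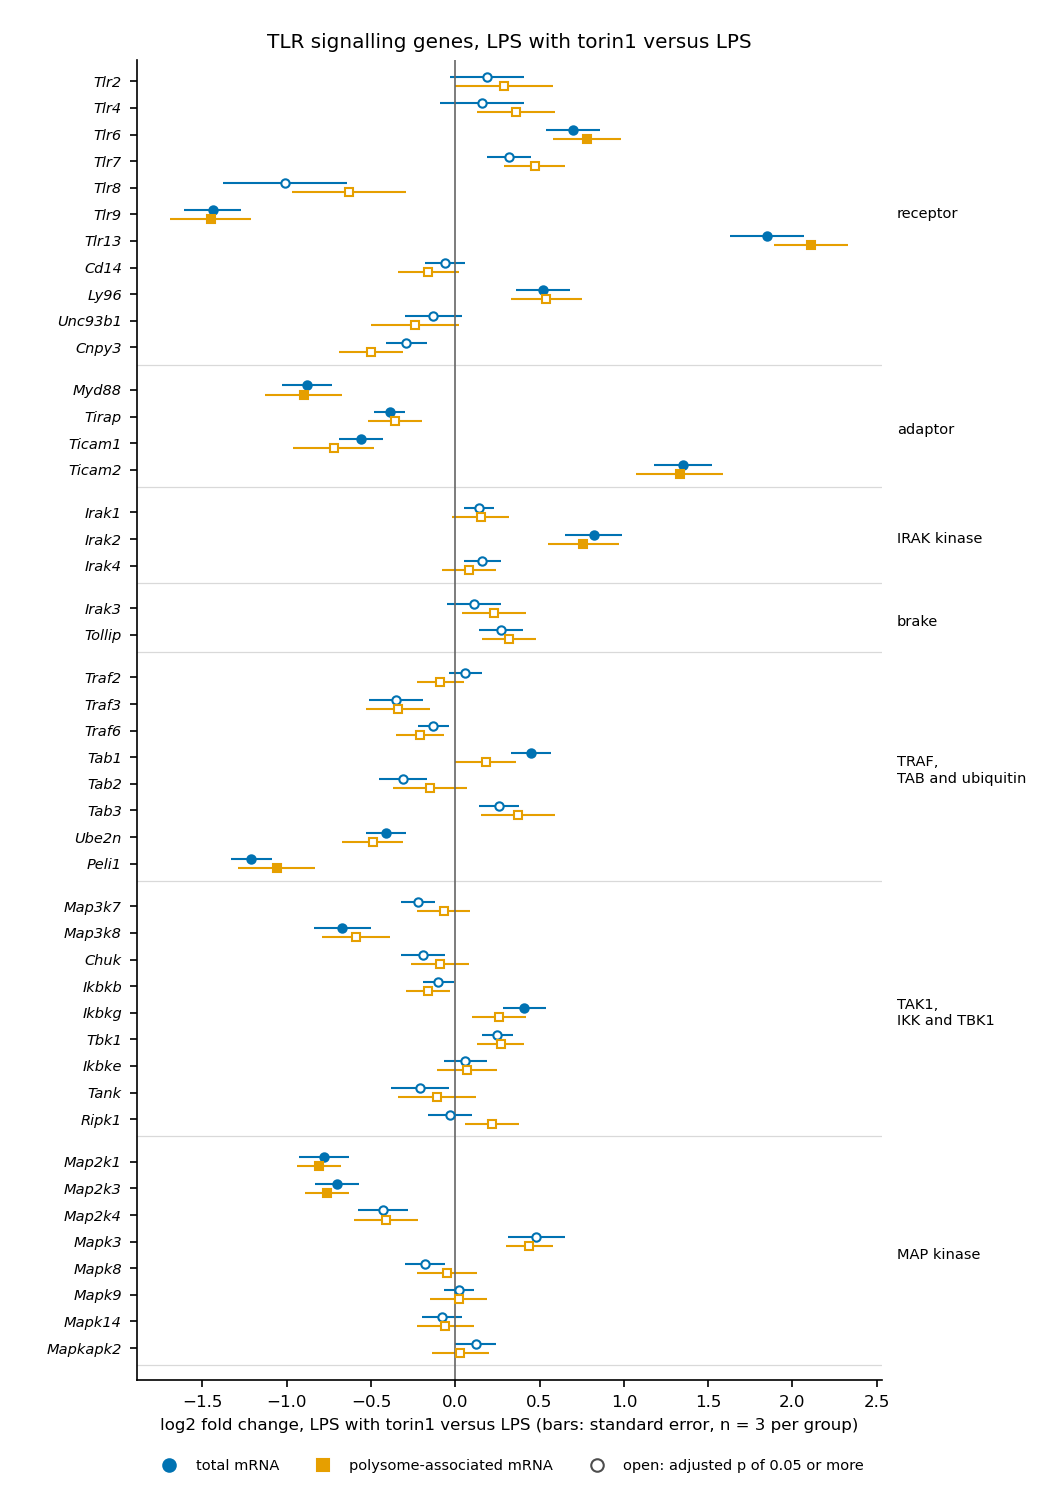
Log2 difference of the 45 genes between LPS with torin1 and LPS alone in total mRNA (circles) and polysome-associated mRNA (squares), grouped by role, with bars for the standard error (n = 3 per group) and filled symbols for an adjusted p under 0.05. Tlr13 lies farthest right at 1.85 in total and 2.11 in polysome-associated mRNA, and Tlr9 farthest left at -1.44 and -1.45.

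Among the genes of the LPS receptor complex, Cd14 and Ly96 rose after LPS in both RNA types and Tlr4 was not called. Tlr4 mRNA, which encodes the signalling receptor, was measured at 157.1, 120.2 and 121.3 in control cells, 188.4, 104.4 and 82.6 after LPS, and 128, 150.7 and 141.6 after LPS with torin1 (TMM-normalised CPM in experiments 1, 2 and 3, as in the sentences that follow). Experiment 1 gave the highest LPS value and experiment 3 the lowest, so control and LPS libraries overlapped and the log2 fold change of -0.09 ± 0.25 (SE) was not called (edgeR, adjusted p = 0.805). In polysome-associated mRNA Tlr4 differed by 0.02 ± 0.23 after LPS and by 0.36 ± 0.23 with torin1 against LPS (adjusted p = 0.956 and 0.314). Cd14 mRNA, encoding the co-receptor that passes LPS to the TLR4 complex, was measured at 1246, 1166 and 1139 in control cells, 3047, 3886 and 3253 after LPS, and 3155, 3472 and 3136 after LPS with torin1, and in polysome-associated mRNA at 1948, 1624 and 1477 in control cells, 4489, 4305 and 3631 after LPS, and 3768, 4275 and 3083 after LPS with torin1. In each RNA type all 3 LPS libraries were above all control libraries, and the torin1 libraries overlapped the LPS libraries. Cd14 rose by 1.52 ± 0.12 in total mRNA (adjusted p = 6.55e-06) and by 1.30 ± 0.18 in polysome-associated mRNA (adjusted p = 0.000411), and differed by -0.06 ± 0.12 with torin1 (adjusted p = 0.733). Ly96 mRNA, for the MD-2 subunit that holds LPS, was measured at 5.89, 7.69 and 6.99 in control cells, 11.7, 10.7 and 8.74 after LPS, and 13.8, 14.6 and 16.4 after LPS with torin1, and in polysome-associated mRNA at 4.89, 7.61 and 7.63 in control cells, 12.6, 11.5 and 11.3 after LPS, and 17.7, 13.8 and 19.7 after LPS with torin1. Its 3 groups did not overlap in either RNA type, and it rose by 0.60 ± 0.16 with LPS (adjusted p = 0.0108, 0.105 without experiment 1), or by an uncalled 0.23 with library totals, and was higher again with torin1 by 0.52 ± 0.16 (adjusted p = 0.0306), or by an uncalled 0.34 without experiment 3 (adjusted p = 0.317). In polysome-associated mRNA the corresponding values were 0.81 ± 0.21 (adjusted p = 0.0145) and 0.54 ± 0.21 (adjusted p = 0.12).

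The cell-surface receptors for lipopeptides rose in total mRNA. Tlr6, which pairs with TLR2, was measured at 11.4, 17.9 and 12.9 in control cells, 32.2, 29.3 and 25.2 after LPS, and 46.7, 47.1 and 47.7 after LPS with torin1. Every LPS library was above every control library and every torin1 library above every LPS library. The rise with LPS was 1.04 ± 0.16 (adjusted p = 0.000502) and the further difference with torin1 was 0.70 ± 0.16 (adjusted p = 0.00911, 0.128 without experiment 3). Polysome-associated Tlr6 was measured at 10.5, 18.1 and 13.8 in control cells, 31.5, 25.9 and 27.3 after LPS, and 49.7, 42 and 53.8 after LPS with torin1, with log2 differences of 1.00 ± 0.20 (adjusted p = 0.00375) and 0.78 ± 0.20 (adjusted p = 0.0292). Tlr2 rose by 0.73 ± 0.22 in total mRNA (adjusted p = 0.0208, 0.184 without experiment 3, and 0.195 with library totals). In polysome-associated mRNA it differed by 0.78 ± 0.29, which was not called, but was called with the experiment as a block (adjusted p = 0.0597 without and 0.0106 with the block).

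Of the endosomal receptors for nucleic acids, Tlr13 was higher and Tlr9 lower with torin1. Tlr13, the receptor for bacterial ribosomal RNA (chrX:106143204-106160493 on GRCm38), was measured at 102.3, 116 and 83.3 in control cells, 80, 80.5 and 43 after LPS, and 259.5, 242 and 232.2 after LPS with torin1. The LPS libraries lay below the control libraries and all 3 torin1 libraries lay above both. With LPS the log2 difference was -0.57 ± 0.22, which was not called, but was called with the experiment as a block (adjusted p = 0.0534 without and 0.00846 with the block). With torin1 it was higher than with LPS by 1.85 ± 0.22 (adjusted p = 0.00038). Polysome-associated Tlr13 was measured at 81.8, 116.4 and 86.4 in control cells, 76.1, 69.3 and 52.1 after LPS, and 321.8, 222.1 and 308.6 after LPS with torin1, and was higher with torin1 than with LPS by 2.11 ± 0.22 (adjusted p = 0.000659). Tlr9, the receptor for unmethylated CpG DNA, was measured at 10.4, 9.65 and 10.5 in control cells, 7.96, 7.44 and 10.7 after LPS, and 3.42, 3.13 and 3.07 after LPS with torin1, and in polysome-associated mRNA at 14.9, 8.67 and 11.3 in control cells, 11.1, 7.96 and 9.37 after LPS, and 3.78, 2.99 and 3.61 after LPS with torin1. Here control and LPS libraries overlapped, and the 3 torin1 libraries were the lowest. The difference was -0.22 ± 0.16 after LPS (adjusted p = 0.286) and -1.44 ± 0.17 with torin1 against LPS (adjusted p = 0.000369). The same contrasts in polysome-associated mRNA gave -0.30 ± 0.23 (adjusted p = 0.357) and -1.45 ± 0.24 (adjusted p = 0.00388). Tlr9 was among the least expressed of the 45, with a lowest count of 88.

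Tlr8, an endosomal receptor related to TLR7, was measured at 9.63, 5.52 and 9.1 in control cells, 38.2, 15.4 and 16.5 after LPS, and 15.7, 9.44 and 9.62 after LPS with torin1, and in polysome-associated mRNA at 4.87, 3.53 and 3.35 in control cells, 21.9, 8.77 and 10.7 after LPS, and 10.9, 6.61 and 9.23 after LPS with torin1. Experiment 1 gave the highest LPS value in both RNA types. Tlr8 rose by 1.53 ± 0.37 in total mRNA (adjusted p = 0.00653) and by 1.82 ± 0.35 in polysome-associated mRNA (adjusted p = 0.0026). The difference of -1.01 ± 0.37 with torin1 in total mRNA was not called, but was called with the experiment as a block (adjusted p = 0.0611 without and 0.0053 with the block). Tlr7, the receptor for single-stranded RNA, rose by 0.52 ± 0.13 with LPS in total mRNA (adjusted p = 0.00707) and by 0.64 ± 0.18 in polysome-associated mRNA (adjusted p = 0.0184), neither of which was called with library totals (0.15 and 0.28). Unc93b1, the carrier of the endosomal receptors, rose by 0.58 ± 0.17 in total mRNA (adjusted p = 0.0181), a value that rested on experiment 2, without which it was 0.27 (adjusted p = 0.174), and that was 0.22 with library totals (adjusted p = 0.308). It stood at 0.36 ± 0.26 in polysome-associated mRNA (adjusted p = 0.313). Cnpy3, a folding chaperone for several TLRs, changed the other way, by -0.48 ± 0.12 in total and -0.64 ± 0.19 in polysome-associated mRNA (adjusted p = 0.00634 and 0.0242).

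**Figure D3:**
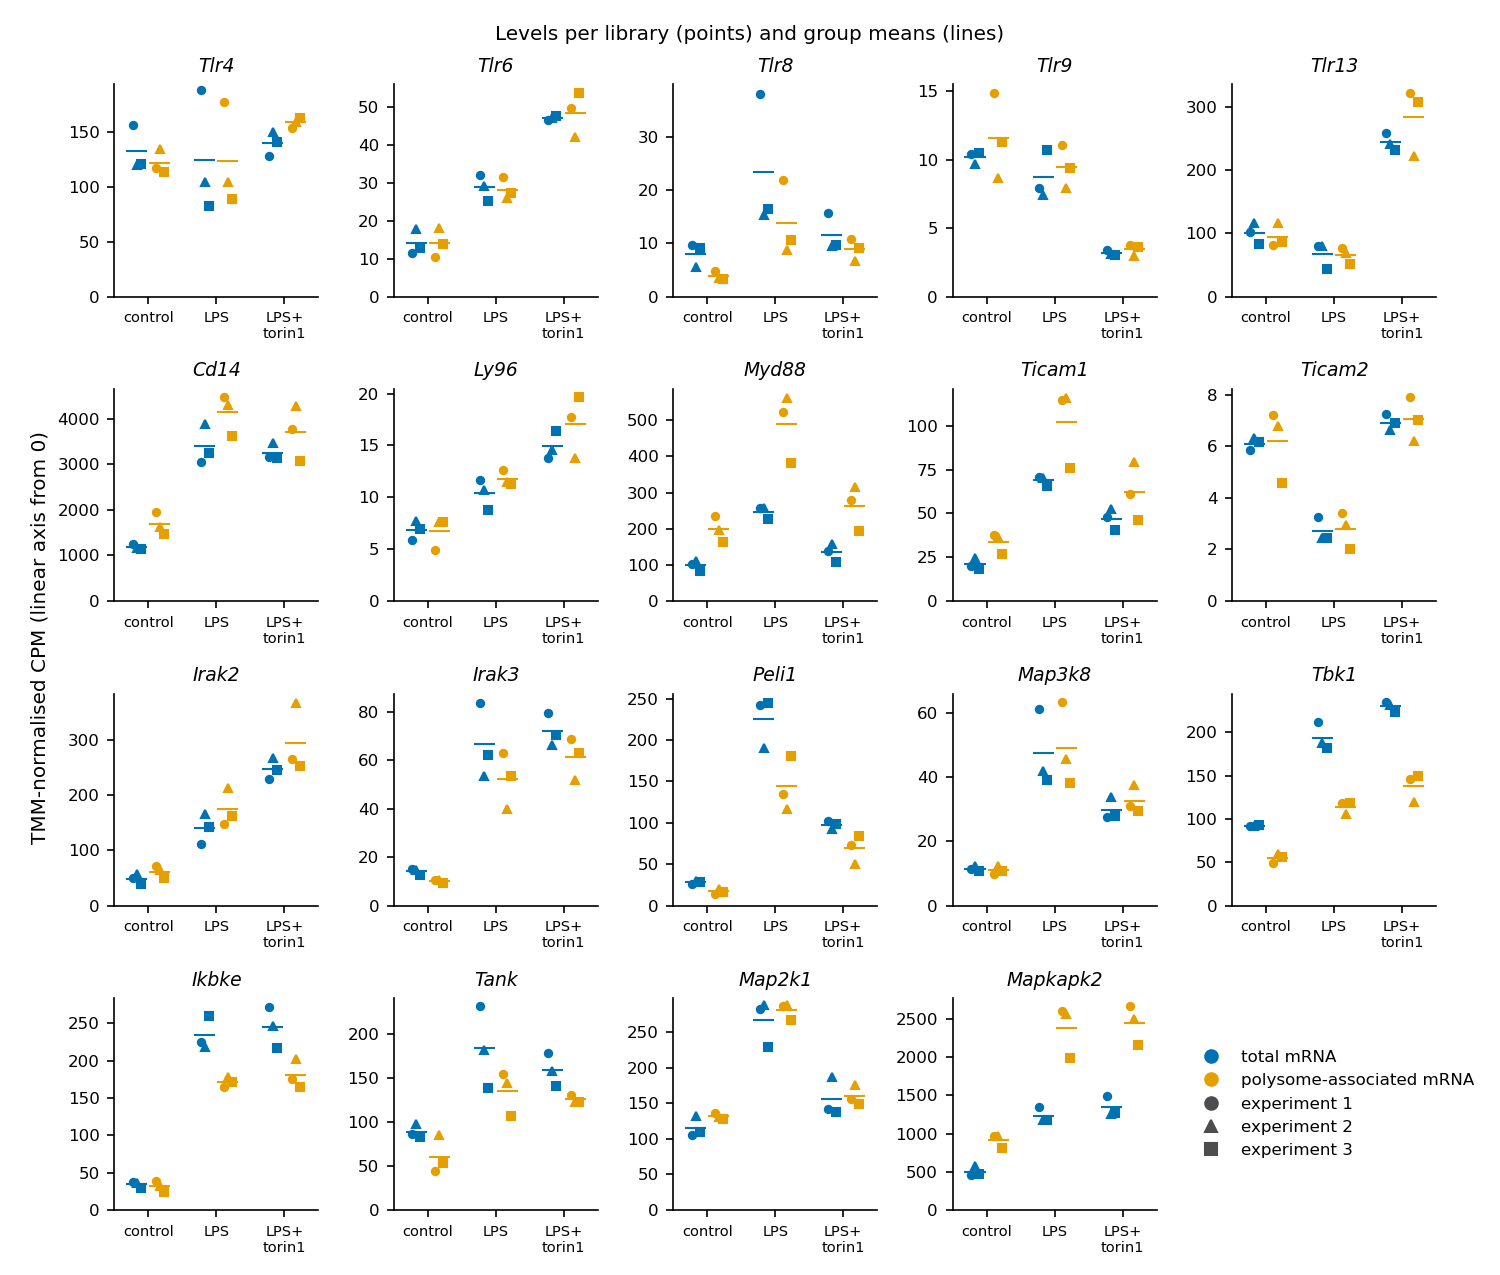
TMM-normalised CPM of 19 genes in every library (points, shaped by experiment) with group means (lines), for total mRNA and polysome-associated mRNA in control cells, after LPS and after LPS with torin1, each panel on a linear axis from 0. Levels of Tlr13 are highest and those of Tlr9 lowest in the torin1 libraries, while Cd14, Ikbke and Mapkapk2 remain near their LPS levels there.

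The adaptors were called in both RNA types after LPS, 3 upward and 1 downward. Myd88, the adaptor shared by most TLRs, was measured at 102.8, 110.3 and 83.4 in control cells, 256, 258 and 226.7 after LPS, and 137.1, 158.7 and 107.8 after LPS with torin1, and in polysome-associated mRNA at 235.7, 196.3 and 164 in control cells, 524, 562.3 and 380.8 after LPS, and 279.7, 314.5 and 193.7 after LPS with torin1. The LPS libraries were the highest of the 3 groups without overlap in either RNA type. Myd88 rose by 1.32 ± 0.15 in total mRNA (adjusted p = 7.55e-05) and was lower with torin1, at -0.88 ± 0.15 (adjusted p = 0.00268). In polysome-associated mRNA the same differences were 1.30 ± 0.23 (adjusted p = 0.00155) and -0.90 ± 0.23 (adjusted p = 0.0259, 0.204 without experiment 1 and 0.118 without experiment 3). Acaa1a, whose exons overlap Myd88 on the opposite strand, differed by -0.10 ± 0.15 and -0.12 ± 0.15 in the same total mRNA contrasts (adjusted p = 0.613 and 0.575). Whether strand was used in counting is not given in the sources used here. Tirap, the bridge from TLR2 and TLR4 to MyD88, rose by 0.69 ± 0.09 (adjusted p = 0.000112) and was lower with torin1, at -0.39 ± 0.09 (adjusted p = 0.0084) in total mRNA. Srpr, which overlaps Tirap on the opposite strand, also rose with LPS, by 0.75 ± 0.10 (adjusted p = 0.000129), so the Tirap values are uncertain to that extent.

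The TRIF arm held adaptors that went opposite ways. Ticam1, encoding TRIF, was measured at 19.8, 24.6 and 18.4 in control cells, 71.1, 70.5 and 65.5 after LPS, and 47.7, 52.7 and 40.6 after LPS with torin1, and in polysome-associated mRNA at 37.8, 36.4 and 26.6 in control cells, 114.8, 116.2 and 76.1 after LPS, and 61.1, 79.5 and 46.2 after LPS with torin1. In total mRNA the 3 groups did not overlap, with LPS highest and control lowest. Ticam1 rose by 1.72 ± 0.13 (adjusted p = 5.95e-06) and was lower with torin1, at -0.56 ± 0.13 (adjusted p = 0.0107). The polysome-associated difference with torin1, -0.72 ± 0.24, was not called, but was called with the experiment as a block (adjusted p = 0.0709 without and 0.00581 with the block). Ticam2, encoding TRAM, the adaptor that links TLR4 to TRIF, was measured at 5.86, 6.31 and 6.15 in control cells, 3.27, 2.46 and 2.44 after LPS, and 7.24, 6.62 and 6.9 after LPS with torin1, and in polysome-associated mRNA at 7.23, 6.8 and 4.59 in control cells, 3.42, 2.95 and 2.02 after LPS, and 7.93, 6.19 and 7.02 after LPS with torin1. The LPS libraries were the lowest in both RNA types, below every control and every torin1 library. Ticam2 fell, with a log2 fold change of -1.17 ± 0.17 in total mRNA (adjusted p = 0.000276), and was higher with torin1 than with LPS by 1.35 ± 0.17 (adjusted p = 0.000459). In polysome-associated mRNA these differences were -1.15 ± 0.26 (adjusted p = 0.00643) and 1.33 ± 0.26 (adjusted p = 0.00893). Ticam2 shares exons with Tmed7 on the same strand, so reads in the shared exons cannot be assigned to 1 of them with certainty, and Tmed7 differed by 0.32 ± 0.12 with LPS and -0.05 ± 0.12 with torin1 (adjusted p = 0.0463 and 0.785).

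Of the IRAK kinases, which relay the signal from MyD88, Irak2 alone was called after LPS. It was measured at 49.5, 57.4 and 38.7 in control cells, 112.1, 166.9 and 142 after LPS, and 230.3, 267.8 and 245.8 after LPS with torin1, and in polysome-associated mRNA at 71.5, 64.1 and 49.2 in control cells, 148.4, 213.5 and 162 after LPS, and 265.4, 368.3 and 252.3 after LPS with torin1. In both RNA types all LPS libraries were above all control libraries and all torin1 libraries above all LPS libraries. Irak2 rose by 1.53 ± 0.17 with LPS (adjusted p = 6.2e-05) and was higher again by 0.82 ± 0.17 with torin1 (adjusted p = 0.00601, 0.0611 without experiment 3). In polysome-associated mRNA the values were 1.50 ± 0.21 (adjusted p = 0.000449) and 0.76 ± 0.21 (adjusted p = 0.0386). Irak1 and Irak4, the kinases that start the relay, differed by -0.20 ± 0.09 and -0.19 ± 0.11 with LPS in total mRNA (adjusted p = 0.0878 and 0.171), and Irak1 was called with the experiment as a block (adjusted p = 0.0495).

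Both brakes rose, Tollip not passing the threshold with library totals (0.28 in total and 0.29 in polysome-associated mRNA). Irak3, which encodes the kinase-inactive IRAK-M, was measured at 15, 14.5 and 12.8 in control cells, 83.8, 53.5 and 62.1 after LPS, and 79.4, 66.1 and 70.3 after LPS with torin1, and in polysome-associated mRNA at 10.7, 10.7 and 9.34 in control cells, 63, 40 and 53.6 after LPS, and 68.8, 51.9 and 63.1 after LPS with torin1. The LPS and torin1 libraries overlapped each other and were all above the control libraries. Irak3 rose by 2.24 ± 0.16 in total mRNA (adjusted p = 4.09e-06) and by 2.35 ± 0.20 in polysome-associated mRNA (adjusted p = 1.68e-05), which is a 4.72-fold rise in total mRNA. With torin1 against LPS it differed by 0.11 ± 0.16 (adjusted p = 0.614) and 0.23 ± 0.19 (adjusted p = 0.442). Tmbim4, which overlaps Irak3 on the opposite strand, rose by 0.41 ± 0.09 with LPS (adjusted p = 0.0028). Tollip, which binds IRAK1 and holds it inactive, rose by 0.65 ± 0.13 in total and 0.65 ± 0.16 in polysome-associated mRNA (adjusted p = 0.00227 and 0.00956). Its difference with torin1 of 0.27 ± 0.13 in total mRNA was not called, but was called with the experiment as a block (adjusted p = 0.138 without and 0.0219 with the block).

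Among the TRAF, TAB and ubiquitin genes, Peli1 stood apart. Peli1 (chr11:21091291-21150323 on GRCm38) encodes a ubiquitin ligase that acts on IRAK kinases, and was measured at 26.2, 29.6 and 28.8 in control cells, 242.1, 189.9 and 244.7 after LPS, and 101.8, 93 and 98 after LPS with torin1, and in polysome-associated mRNA at 14.3, 20.1 and 16.6 in control cells, 134.9, 116.9 and 180.7 after LPS, and 73.6, 50.7 and 83.7 after LPS with torin1. The 3 groups did not overlap in either RNA type, with the torin1 libraries between control and LPS. Peli1 rose 7.99-fold in total mRNA, by 3.00 ± 0.12 on the log2 scale (adjusted p = 2.23e-07), and was lower with torin1, at -1.21 ± 0.12 (adjusted p = 0.000157). In polysome-associated mRNA the differences were 3.09 ± 0.24 (adjusted p = 1.26e-05) and -1.06 ± 0.23 (adjusted p = 0.0136). Tab2, an adaptor that joins TAK1 to ubiquitin chains, rose by 0.68 ± 0.14 (adjusted p = 0.00218, and 0.31 with an adjusted p of 0.0625 with library totals), whereas Tab1, an activating subunit of TAK1, differed by -0.81 ± 0.12 with LPS and by 0.45 ± 0.12 with torin1 (adjusted p = 0.000313 and 0.0175). Traf6, the ubiquitin ligase downstream of the IRAKs, rose by 0.31 ± 0.09 (adjusted p = 0.0196), a direction that turned to -0.06 with library totals in place of TMM. Traf2 and Traf3, which also serve receptors of the TNF family, and Tab3, a relative of Tab2, were not called after LPS, with differences of 0.22 ± 0.10, -0.04 ± 0.16 and 0.14 ± 0.12. Ube2n, the conjugating enzyme that works with TRAF6, was called upward in polysome-associated mRNA, by 0.57 ± 0.18 (adjusted p = 0.0331, with uncalled values of 0.32 without experiment 1 and 0.21 with library totals), and not in total mRNA, at 0.26 ± 0.12 (adjusted p = 0.0949), with no call for the difference between them. A pseudogene of Ube2n is annotated, with which reads may be shared.

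In the TAK1, IKK and TBK1 group, the genes of the canonical IKK complex gave small differences and those of the TBK1 branch large ones. Ikbke (chr1:131254343-131279606 on GRCm38), encoding IKKε, was measured at 38.1, 36.1 and 29.8 in control cells, 225.7, 218.5 and 259.5 after LPS, and 271.6, 246.3 and 217.5 after LPS with torin1, and in polysome-associated mRNA at 39.1, 32.2 and 24.3 in control cells, 164.4, 178.3 and 171.8 after LPS, and 175.2, 202.2 and 164.3 after LPS with torin1. LPS and torin1 libraries overlapped and all were above the control libraries. Ikbke rose 6.77-fold, by 2.76 ± 0.14 in total mRNA (adjusted p = 4.22e-07), and by 2.43 ± 0.19 in polysome-associated mRNA (adjusted p = 1.07e-05), with a difference of 0.06 ± 0.13 between LPS with torin1 and LPS (adjusted p = 0.744). Tbk1, the kinase that activates IRF3, was measured at 91.5, 91.9 and 93.1 in control cells, 212, 187.9 and 182.5 after LPS, and 235.7, 231.6 and 224.2 after LPS with torin1. It rose by 1.07 ± 0.09 in total mRNA (adjusted p = 1.08e-05), and all 3 torin1 libraries were above all LPS libraries. This difference of 0.25 ± 0.09 was not called, but was called with the experiment as a block (adjusted p = 0.0644 without and 0.0274 with the block). Tank, a scaffold that binds TBK1 and IKKε, was measured at 86.7, 97.2 and 82.9 in control cells, 231.1, 181.1 and 138.5 after LPS, and 178, 157.9 and 140.6 after LPS with torin1. The torin1 libraries lay within the LPS range, and Tank rose by 1.05 ± 0.17 with LPS (adjusted p = 0.000714) and differed by -0.21 ± 0.17 with torin1 (adjusted p = 0.393). In polysome-associated mRNA Tbk1 and Tank rose by 1.06 ± 0.15 and 1.16 ± 0.24 (adjusted p = 0.000352 and 0.00384).

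Map3k8, encoding the kinase TPL2 that feeds the ERK pathway, was measured at 11.4, 12.3 and 10.6 in control cells, 61.2, 42 and 39 after LPS, and 27.6, 33.7 and 27.9 after LPS with torin1, and in polysome-associated mRNA at 9.96, 12.3 and 10.6 in control cells, 63.3, 45.5 and 38.2 after LPS, and 30.9, 37.5 and 29.4 after LPS with torin1. The 3 groups did not overlap, with torin1 between control and LPS, and experiment 1 gave the highest LPS value. Map3k8 rose by 2.05 ± 0.18 (adjusted p = 1.08e-05) and was lower with torin1, at -0.67 ± 0.17 in total mRNA (adjusted p = 0.0142). Without experiment 1 this difference was -0.40 (adjusted p = 0.0978), and without experiment 3 its adjusted p was 0.0761. The polysome-associated differences were 2.16 ± 0.21 (adjusted p = 3.95e-05) and -0.59 ± 0.20 (adjusted p = 0.0772). By contrast, TAK1 itself (Map3k7) and the IKK subunit genes Chuk, Ikbkb and Ikbkg differed by 0.09 ± 0.10, 0.26 ± 0.13, 0.20 ± 0.09 and 0.13 ± 0.13 after LPS in total mRNA, and none was called. Chuk and Ikbkb were called with the experiment as a block (adjusted p = 0.0381 and 0.0418). Ikbkg, the regulatory subunit NEMO, was higher with torin1 than with LPS by 0.41 ± 0.13 (adjusted p = 0.0345, from 0.0604 to 0.207 with 1 experiment left out). In polysome-associated mRNA this difference was 0.26 ± 0.16 (adjusted p = 0.308). G6pdx, whose exons overlap Ikbkg on the opposite strand, differed by -0.27 ± 0.13 with torin1 (adjusted p = 0.137). Its mean after LPS was 397.3 CPM in total mRNA, against 62.1 CPM for Ikbkg, so the Ikbkg values are uncertain to that extent. Ripk1, a kinase recruited by TRIF, rose by 0.39 ± 0.13 (adjusted p = 0.0299, and 0.01 with library totals), and its exons overlap Serpinb6a on the opposite strand, which differed by 0.42 ± 0.15 (adjusted p = 0.0403).

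In the MAP kinase group the largest changes after LPS were those of Mapkapk2 and Map2k1. Map2k1, encoding the ERK kinase MEK1, was measured at 105.5, 132.4 and 109.6 in control cells, 283.3, 289.1 and 230 after LPS, and 142.6, 187.7 and 137.8 after LPS with torin1, and in polysome-associated mRNA at 136.5, 130.6 and 127.6 in control cells, 287, 288.2 and 267.2 after LPS, and 156.1, 176.4 and 149.4 after LPS with torin1. The LPS libraries were the highest without overlap. It rose by 1.21 ± 0.15 (adjusted p = 0.000122) and was lower with torin1, at -0.78 ± 0.15 in total mRNA (adjusted p = 0.00445, 0.0531 without experiment 1 and 0.0511 without experiment 3). In polysome-associated mRNA the differences were 1.09 ± 0.13 (adjusted p = 0.000144) and -0.81 ± 0.13 (adjusted p = 0.00361). Mapkapk2 was measured at 461.4, 572.4 and 471.2 in control cells, 1354, 1174 and 1178 after LPS, and 1497, 1261 and 1272 after LPS with torin1, and in polysome-associated mRNA at 974.8, 965.3 and 818 in control cells, 2602, 2572 and 1992 after LPS, and 2665, 2505 and 2158 after LPS with torin1. LPS and torin1 libraries overlapped, both above control, and Mapkapk2 rose by 1.30 ± 0.13 in total and 1.38 ± 0.17 in polysome-associated mRNA (adjusted p = 2.45e-05 and 0.000176), with 0.12 ± 0.12 between LPS with torin1 and LPS (adjusted p = 0.504). Map2k3, a p38 kinase kinase, differed by -0.01 ± 0.13 after LPS (adjusted p = 0.957) and was lower with torin1, at -0.70 ± 0.13 in total and -0.76 ± 0.13 in polysome-associated mRNA (adjusted p = 0.0039 and 0.00568). Map2k4, which phosphorylates JNK, rose by 0.58 ± 0.15 with LPS (adjusted p = 0.00892, and 0.21 with an adjusted p of 0.22 with library totals). The kinases at the end of the cascades gave smaller values in total mRNA after LPS, with -0.01 ± 0.17 for Mapk3 (ERK1), 0.01 ± 0.12 for Mapk8 (JNK1), -0.51 ± 0.09 for Mapk9 (JNK2) and -0.29 ± 0.12 for Mapk14 (p38α), of which Mapk9 was called (adjusted p = 0.00102) and Mapk14 was called with the experiment as a block (adjusted p = 0.0255).

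Set against control cells, cells given LPS with torin1 had 26 of the 45 genes higher and 6 lower in total mRNA, where 23.7% of all genes were higher and 23.8% lower. In polysome-associated mRNA 21 were higher and 4 lower, where 18.3% of all genes were higher and 16.8% lower. The median log2 difference of the 45 was 0.41 and 0.45. With library totals the counts were 16 higher and 12 lower in total and 16 higher and 8 lower in polysome-associated mRNA, where 14.6% of all genes were higher and 42.5% lower in total and 11.9% higher and 32.5% lower in polysome-associated mRNA. The median of all genes was then -0.30, and Traf2 turned from 0.28 to -0.02 in total mRNA. Without experiment 3 the number called in total mRNA was 20 in place of 32. This comparison shares its control libraries with that of LPS versus control and its torin1 libraries with that of torin1 versus LPS. For single genes, Ticam2 differed from control by 0.18 ± 0.16 (adjusted p = 0.384), against -1.17 for LPS alone. Myd88 remained above control by 0.44 ± 0.15 (adjusted p = 0.0343, from 0.108 to 0.122 without experiment 1 or 2, and 0.425 with library totals), against 1.32 for LPS alone. Irak2 and Tlr6 were above control by 2.35 ± 0.18 and 1.74 ± 0.16 (adjusted p = 4.2e-06 and 1.62e-05), Tlr13 was above control by 1.28 ± 0.22 (adjusted p = 0.000794), and Tlr9 and Map2k3 differed by -1.67 ± 0.17 and -0.71 ± 0.13 (adjusted p = 2.97e-05 and 0.00139).

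A change on polysomes beyond that in total mRNA was tested by a term for RNA type and treatment together, fitted over all 18 libraries. None of the 45 genes was called, and 0% of all genes was called, for LPS versus control and likewise for LPS with torin1 versus LPS (0%; edgeR's quasi-likelihood test). At an unadjusted p under 0.05, edgeR gave 0 of the 45 genes in each comparison, and 44 and 110 of all genes (0.391% and 0.978%). These shares lie far below that expected from a threshold of 0.05 when nothing differs, so the p-values of this fit were conservative. The fit does not pair both RNA types by lysate, so its lack of calls is not read as absence of a change. At the same threshold over all genes, edgeR with the lysate as a block gave 164 and 303, and the analysis of partial variance 697 and 660. DESeq2 called none of the 45, with 0 at an unadjusted p under 0.05 in each comparison, edgeR with the lysate as a block called none with 1 for LPS (Ube2n) and 0 for torin1, and the analysis of partial variance called none with 0 for LPS and 1 for torin1 (Map2k1). The interaction ranged among the 45 from -0.33 (Ikbke) to 0.32 (Ube2n) on the log2 scale for LPS and from -0.29 (Tab1) to 0.36 (Tlr8) for torin1. Its standard error was 0.14 to 0.54, so only differences well above that size could have been called.

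In control cells, the 45 genes differed in how much of their mRNA was in heavy polysomes relative to other genes. Polysome-associated exceeded total mRNA for 12 genes (26.7%) and fell below it for 12 (26.7%), where 26.1% of all genes were higher and 23% lower, so these shares lie near those of all genes. Both RNA types came from the same lysates, and with the lysate as a block 15 genes (33.3%) were higher and 16 (35.6%) lower, where 34.2% of all genes were higher and 30.8% lower. The block added Tlr2, Irak2 and Mapk14 to the higher and Tlr7, Irak3, Chuk and Map2k4 to the lower genes. Each value is relative to the average gene, since each library was scaled to its own total and TMM factor. The highest were Map2k3 at 1.01 ± 0.13 and Myd88 at 1.01 ± 0.20 (adjusted p = 5.52e-05 and 0.0009), followed by Unc93b1 at 0.92 ± 0.23 and Mapkapk2 at 0.88 ± 0.14. For Myd88 the polysome-associated libraries stood at 235.7, 196.3 and 164 CPM against 102.8, 110.3 and 83.4 CPM in total mRNA, without overlap. The lowest were Tlr8 at -1.04 ± 0.39 (adjusted p = 0.0375, 0.257 without experiment 3), Tab2 at -0.81 ± 0.20, Tbk1 at -0.74 ± 0.12 and Peli1 at -0.73 ± 0.19. Tbk1 stood at 48.7, 59.8 and 56.2 CPM in polysome-associated and 91.5, 91.9 and 93.1 CPM in total mRNA, also without overlap. The CPM used TMM factors computed within each RNA type, whereas the ratios were fitted with factors over all 18 libraries. The lack of overlap for Myd88 and Tbk1 is therefore given on the first of these scales. The number called was 8 without experiment 1, and 7 of the 24 (Mapkapk2, Tbk1, Map2k3, Ripk1, Cnpy3, Traf2 and Mapk3) stayed called whichever experiment was left out, the other 17 having an adjusted p from 0.0515 to 0.275 where they lost the call.

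Genes higher on polysomes had shorter exons in sum. The median exon length (union of annotated exons) was 3036 bp for the 12 higher, 4412 bp for the 21 not called and 6488 bp for the 12 lower. Over all genes with a length in the annotation (10734 of 11243) these medians were 3407, 4406 and 6296 bp. By the calls with the lysate as a block they were 3041, 4610 and 6115 bp for the 45 genes and 3421, 4373 and 6133 bp for all genes with a length. Spearman's rho between the log2 ratio and the length was -0.59 over the 45 genes and -0.36 over all genes with a length. These are descriptions across genes measured in the same libraries, and genes are not independent replicates. Tlr8 and Tbk1, at under the median length of the genes not called, were among the lowest ratios.

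**Figure D4:**
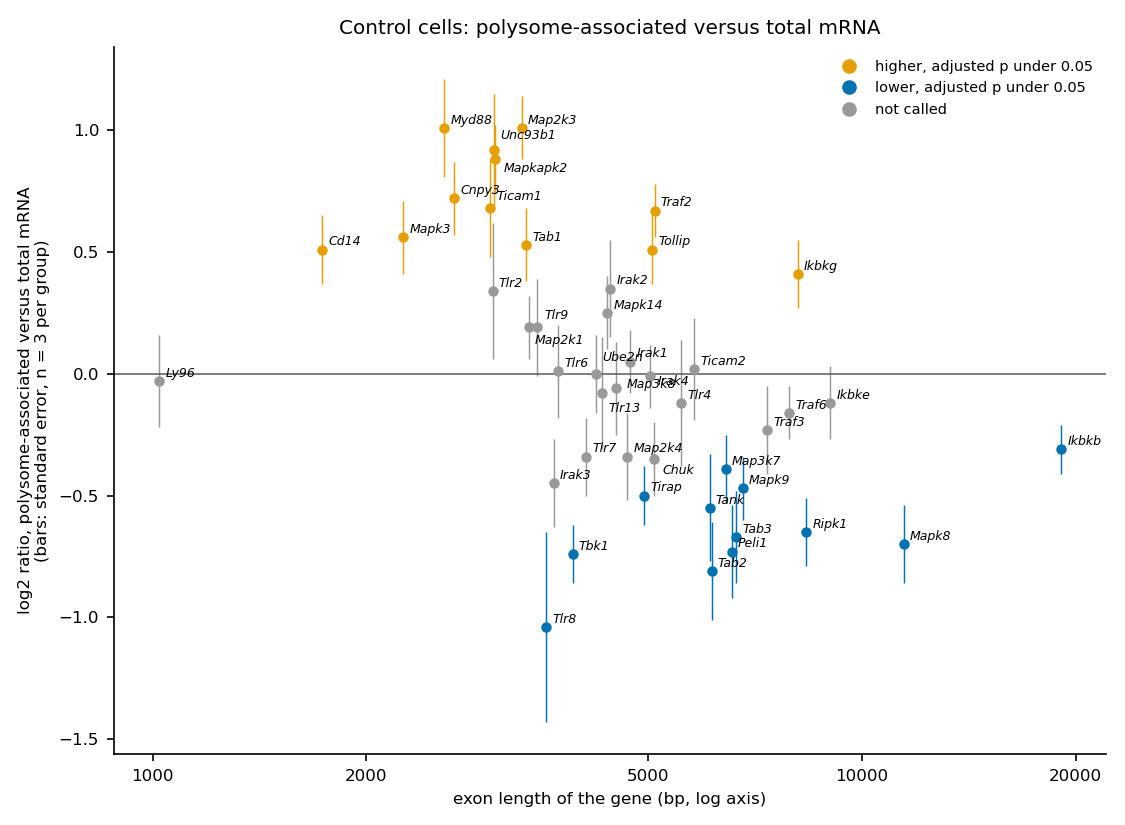
Log2 ratio of polysome-associated to total mRNA in control cells against exon length (log axis) for the 45 genes, with bars for the standard error (n = 3 per group) and colours for the call. Map2k3 and Myd88 lie at the top at 1.01 each, and Tlr8 at the bottom at -1.04.

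Other genes of the pathway were read from a list of 35 further components, of which 25 were in the table. This list too was chosen with earlier results of these data known. In total mRNA after LPS, 11 of the 25 rose and 1 fell, with a median log2 fold change of 0.30, and in polysome-associated mRNA 8 rose and 1 fell. As given above, 21.7% of all genes rose and 24% fell in total mRNA, and 15.9% rose and 16.6% fell in polysome-associated mRNA. With torin1 against LPS, 2 were higher and 3 lower in total mRNA (15.6% and 13.5% of all genes) and 1 higher and 2 lower in polysome-associated mRNA (8.1% and 5.75% of all genes), so these counts are near or below those shares. The largest rises in total mRNA were those of Tlr3, the receptor for double-stranded RNA, by 2.72 ± 0.38, of the interferon regulatory factor Irf7, by 2.64 ± 0.45, and of Traf1, by 2.48 ± 0.22 (adjusted p = 0.000234, 0.000896 and 1.34e-05). Tlr3 was lower with torin1, at -1.20 ± 0.36 (adjusted p = 0.0295), and Irf7 and Traf1 differed by -0.83 ± 0.43 and -0.05 ± 0.21 (adjusted p = 0.176 and 0.881), with Irf7 called when the experiment was a block (adjusted p = 0.00319).

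Another list, also chosen with earlier results of these data known, held 21 further brakes on the pathway, all in the table. In total mRNA after LPS 13 rose and 2 fell, with a median log2 fold change of 1.14, and in polysome-associated mRNA 12 rose and 2 fell, where the shares of all genes were 21.7% and 24% in total and 15.9% and 16.6% in polysome-associated mRNA. With torin1 against LPS 3 were higher and 6 lower in total mRNA (15.6% and 13.5% of all genes), and 1 higher and 5 lower in polysome-associated mRNA (8.1% and 5.75% of all genes). The largest rises were those of Socs3, a suppressor of cytokine signalling, by 6.89 ± 0.18, of Tnfaip3, which encodes the deubiquitinase A20, by 3.90 ± 0.31, and of Zc3h12a, which encodes the mRNA-degrading nuclease regnase-1, by 3.30 ± 0.19 (adjusted p = 2.33e-08, 5.95e-06 and 9.69e-07). Socs3 was lower with torin1, at -1.06 ± 0.14 (adjusted p = 0.000658), and Tnfaip3 and Zc3h12a differed by -0.32 ± 0.27 and -0.05 ± 0.17 (adjusted p = 0.403 and 0.869).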

How the data were processed

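RNA was measured in RAW264.7 cells in 3 independent experiments, each with control, LPS and LPS with torin1, as total mRNA and as heavy-polysome mRNA of the same lysates (18 libraries, 6 groups of n = 3). Per the study's methods, libraries were prepared with a stranded, ribosomal RNA-depleted protocol, reads were aligned to GRCm38 with Hisat2 and summarised with featureCounts on Ensembl genes within a nextflow pipeline. The authors deposited raw read counts per gene, limited to protein-coding genes and without those at 0 in any library, which was checked on the table (0 such genes). Genes silent in any library are therefore missing.

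From these deposited counts, edgeR 4.0.16 in R 4.3.3 fitted quasi-likelihood models with TMM factors to the 9 libraries of each RNA type, and to all 18 for the interaction of RNA type with treatment, which stands for translation efficiency. P-values were adjusted over all 11243 genes (Benjamini-Hochberg), with a threshold of 0.05. The study's own algorithm was not used here, and its threshold of 0.25 was an alternative. DESeq2 1.42.0 and limma 3.58.1 (analysis of partial variance, pseudocount 0.5) were other alternatives, with DESeq2 size factors, a minimum mean of 1 CPM, 1 model over 18 libraries, the experiment or lysate as a block, and each experiment left out. Library totals in place of TMM were added after seeing the data. The fits were tested on simulated data.

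Replicate numbers come from the labels, and the study describes 3 experiments, so numbers pair libraries. Deviations from group means correlated within an experiment with a mean r of 0.417 (0.127 to 0.54) in total and 0.321 (-0.141 to 0.843) in polysome-associated mRNA, against -0.206 and -0.155 between experiments. Replicates differed by more than sampling noise in every group (lowest chi-square per degree of freedom 26.3).

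Values per library are printed for genes called with an absolute log2 fold change of at least 1 in LPS versus control or torin1 versus LPS in either RNA type, and always for Tlr4, Cd14, Ly96, Myd88 and Irak3 (19 genes). Of the other lists, the 3 with the largest called change after LPS in total mRNA are named. The genes and lists were chosen with earlier results of these data known. Gene positions and exon lengths came from an annotation of GRCm38 and promoter sequences from RefSeq (GRCm38.p6). Exons of 10 of the 45 genes overlap another gene, 3 on the same strand and 8 on the other.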

Additional observations from a re-analysis of the deposited data

How the results depend on the processing

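Of 93 numbers of the 45 genes called under alternatives, 83 stayed within 1.5 times of the number reported. These include both interactions, where 0 stayed 0 under every alternative, so this part says little. Rises and falls were also counted together. LPS versus control in total mRNA with library totals is thus among those within 1.5 times, although 24 rises and 4 falls became 15 and 12. The 10 numbers that moved further were these. For torin1 versus LPS in total mRNA (16 called), leaving out 1 experiment gave 5 to 12 and a threshold of 0.25 gave 27. In polysome-associated mRNA (9 called), leaving out 1 experiment gave 1 to 13, a threshold of 0.25 gave 21 and 1 model over all 18 libraries gave 15. Leaving out 1 experiment gave 13 to 27 in place of 25 for LPS versus control in polysome-associated mRNA, 20 to 25 in place of 32 for LPS with torin1 versus control in total mRNA, and 8 to 26 in place of 24 for polysome-associated versus total mRNA in control cells. The cause of these moves was not tested. Each experiment left out removed the same number of libraries, but the calls lost differed between experiments. For torin1 versus LPS in polysome-associated mRNA, 8 of the 9 calls were lost without experiment 1, 0 without experiment 2 and 8 without experiment 3. Each of 159 called values was recomputed under 7 settings. Among all these pairs of a value and a setting, the threshold was lost with the same direction in 172 (143 of them with an experiment left out and 29 with library totals) and the direction reversed in 2, both with library totals: Traf6 after LPS (-0.06) and Traf2 for LPS with torin1 versus control (-0.02), in total mRNA. With the experiment as a replicate block, 33, 23 and 33 genes were called in total mRNA (LPS, torin1 versus LPS, torin1 with LPS versus control), 26, 11 and 28 in polysome-associated mRNA, 0 for both interactions and 31 in control cells between RNA types. All 159 called values stayed called under this pairing. The share of all genes called is not given with an experiment left out, at the threshold of 0.25 or with 1 model over all 18 libraries. For the treatment comparisons it is not given with the block either. Those numbers therefore describe the 45 genes only.

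With 3 experiments, small differences were within the spread between libraries, most of all in polysome-associated mRNA, so an uncalled gene is not shown to be unaltered. The interaction of RNA type with treatment had the lowest precision. Depth limits Ticam2, Tlr9, Tlr8 and Ly96 most, whose lowest counts were 78, 88, 157 and 194. Genes with a count of 0 in any library were not analysed here. Each torin1 value lacks a torin1-only reference, and all libraries come from 1 cell line.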
